A study of Mus musculus with 4 samples.

Results

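The genes described here are the secreted Wnt ligands, their receptors and co-receptors, the R-spondins and their receptors, the secreted Wnt inhibitors and the intracellular effectors of the pathway. Membership follows from the gene symbol. The symbols matched 62 genes of the 24063 in the deposited table, or 85 of its 33072 RefSeq transcripts. By role these were 19 Wnt ligands, 10 Frizzled receptors, 2 LRP co-receptors, 2 ROR co-receptors, 4 R-spondins, 3 R-spondin receptors of the Lgr family, 9 secreted inhibitors (Sfrp, Dkk and Wif1), the membrane inhibitor Apcdd1, 8 cytoplasmic transducers (β-catenin, Axin, Dishevelled and Naked cuticle) and 4 TCF/LEF transcription factors.

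RNA was sequenced from corticotropes and melanotropes, the hormone cells of the pituitary that produce POMC, from which ACTH and α-MSH are cut. Corticotropes came from the anterior lobe and melanotropes from the intermediate lobe of POMC-EGFP mice on a C57B6 background, a transgenic line in which the green fluorescent protein marks Pomc-expressing cells. The lobes were parted by dissection and GFP-positive cells were sorted from each, with 2 libraries per cell type and 4 in all. All groups carried the same transgene and no treatment is named. The labels give neither the age nor the pooling of the animals, and do not say whether replicates were separate sorts. The p-values therefore measure only the spread between these libraries, which may be technical.

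Wnt proteins are lipid-modified secreted ligands that bind a Frizzled receptor together with a co-receptor. With LRP5 or LRP6 they stop the destruction complex from removing β-catenin, which then acts with TCF/LEF factors in the nucleus, whereas ROR co-receptors serve branches that do not need β-catenin. R-spondins, held by Lgr4, Lgr5 or Lgr6, raise the number of Frizzled and LRP receptors at the cell surface. In the developing pituitary, Wnt signalling is known for its part in the growth of the gland and in the balance of progenitors and hormone cells.

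Levels are FPKM, read numbers divided by exon length and scaled by library. The deposited columns have nearly equal sums over all transcripts, 729482 to 729485. They were further divided by 1 factor per library so that most genes are level between cell types. These factors were 1.22 and 1.15 for corticotropes and 0.882 and 0.807 for melanotropes. Values are always given in the order replicate 1 and replicate 2. A difference is melanotrope minus corticotrope on the log2(FPKM + 1) scale, with its standard error (SE) from limma. That scale understates the change of genes near or below 1 FPKM. A gene was tested if it reached 1 FPKM in at least 2 libraries, and was called at a Benjamini-Hochberg adjusted p under 0.05 over all 13043 genes tested. The table holds no read counts; implied reads are those inferred from the spacing of low FPKM values, 97652520 in corticotrope replicate 1 and 146061472 to 187191552 in the other libraries over the longest transcripts. Because libraries were made from sorted cells in bulk, fewer cells of a type and less RNA per cell cannot be told apart.

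The sequences below are the 250 bases upstream of the annotated start of 3 of the 4 called Wnt ligands and of the R-spondin Rspo4, shown because the make-up of both families is described below; windows of Wnt10a and Rspo3 were not used here. They are read 5′ to 3′ on the gene's own strand, RefSeq build GRCm38.p6, with each CG dinucleotide in capitals to show how densely it recurs ahead of the start site. Wnt5b lies on the minus strand at chr6:119544348-119544597, and the others lie on the plus strand, Wnt9a at chr11:59306680-59306929, Wnt6 at chr1:74771642-74771891 and Rspo4 at chr2:151842677-151842926.
Wnt5b: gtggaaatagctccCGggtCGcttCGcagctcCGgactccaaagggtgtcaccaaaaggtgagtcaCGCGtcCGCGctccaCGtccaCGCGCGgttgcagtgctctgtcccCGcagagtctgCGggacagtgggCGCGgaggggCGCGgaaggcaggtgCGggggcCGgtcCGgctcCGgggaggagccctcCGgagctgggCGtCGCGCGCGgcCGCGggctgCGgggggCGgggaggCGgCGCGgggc
Wnt9a: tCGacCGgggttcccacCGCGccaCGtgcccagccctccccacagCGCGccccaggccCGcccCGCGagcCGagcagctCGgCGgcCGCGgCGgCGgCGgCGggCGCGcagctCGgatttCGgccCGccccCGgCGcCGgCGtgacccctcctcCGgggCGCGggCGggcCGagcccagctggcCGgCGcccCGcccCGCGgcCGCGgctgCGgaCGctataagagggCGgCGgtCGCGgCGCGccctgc
Wnt6: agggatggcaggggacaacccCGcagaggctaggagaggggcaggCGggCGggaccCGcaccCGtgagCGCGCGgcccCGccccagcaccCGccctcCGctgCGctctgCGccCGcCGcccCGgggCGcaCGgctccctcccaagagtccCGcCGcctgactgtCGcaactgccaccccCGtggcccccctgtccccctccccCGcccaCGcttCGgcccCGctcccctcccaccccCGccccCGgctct
Rspo4: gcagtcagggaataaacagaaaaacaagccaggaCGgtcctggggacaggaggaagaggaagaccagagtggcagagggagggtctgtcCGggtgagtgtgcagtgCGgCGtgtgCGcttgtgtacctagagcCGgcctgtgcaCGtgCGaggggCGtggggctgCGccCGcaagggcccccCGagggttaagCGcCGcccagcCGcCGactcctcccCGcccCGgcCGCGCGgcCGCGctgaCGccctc
Wnt5b, the ligand that was higher in melanotropes, had 35 CG dinucleotides and 75.2% G or C in this window. Wnt9a and Wnt6, which were lower, had 48 and 28 CG dinucleotides at 84.4% and 79.6%. Rspo4, higher in melanotropes, had 24 at 69.6%. These printed windows, of genes called in either direction, were rich in CG. Among the other called members with an entry, Fzd9 and Fzd4 had 42 and 25 CG dinucleotides. Fzd7, Sfrp5 and Lgr4 had 17, 13 and 10. Over the 43 of 62 members with an entry the median was 22 CG dinucleotides and 69.2% G or C, against 6 and 52.4% over all 32851 entries of the same length. The TCF/LEF letters CTTTGAT, searched on both strands, occurred in 1 of the 43 windows, that of Wnt11, or 2.33% against 3.21% of all entries. The E-box CAGATG, the letters used by NeuroD factors, was in 2 of 43 (Ror2 and Wnt16), or 4.65% against 14.4%. Neither of these motifs contains the other, and a match is only a description of the window.

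Of the 62 members, 27 were tested, and 7 were higher and 10 lower in melanotropes. Among all genes tested 36.2% were called, 18.7% higher and 17.5% lower. Of the tested members, 18 reached 1 FPKM in every library of both cell types, and 5 of these were higher and 3 lower, where 32.4% of the 11856 genes of that kind were called. Another 7 reached it in corticotropes alone and 1 in melanotropes alone; of the 508 and 318 genes of these kinds among all tested, 89.8% and 92.5% were called, so that their calls carry no weight as a count. These were Wnt6, Wnt9a, Wnt10a, Fzd4, Fzd7, Fzd9 and Rspo3 in corticotropes and Rspo4 in melanotropes. The last, Lgr5, reached it in both melanotrope libraries and in 1 corticotrope library. The median difference over all tested genes was 0.01. Without the filter on low values 61 members could be fitted, 10 were higher and 17 lower, and the median was -0.02; over all 20297 genes fitted that way 24.8% were called, 12.0% higher and 12.8% lower, with a median of -0.01. By role the medians without the filter were -0.02 for ligands, -0.17 for Frizzleds, 0.14 for secreted inhibitors and -0.16 for cytoplasmic transducers. Of the 35 members not tested, 34 stayed under 1 FPKM in all 4 libraries, 13 of them under 0.1.

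The split between higher and lower calls rests on the scaling of the libraries. On the columns as deposited, without rescaling, the median difference over all genes was -0.42, 4 members were higher and 18 lower, and over all genes 939 were higher and 8787 lower, in place of 2442 and 2284. The tested members whose direction turned were Fzd3, Fzd5, Fzd8, Axin1, Dvl1 and Dvl3. Ratios between members within 1 library do not depend on that scaling and are given beside the levels.

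The sorted cell types were checked against their markers in the same libraries. All 5 corticotrope markers were lower and all 5 melanotrope markers higher in melanotropes, with summed levels of 343.5 to 351.4 against 95.3 to 106.2 FPKM and of 178.8 to 230.8 against 1436.3 to 1579 FPKM. Of 4 genes of the POMC lineage, 1 was higher and 1 lower. Markers of the other hormone lineages of the anterior lobe, Gh and Prl among them, were lower in melanotropes for 13 of 13 genes, with summed levels of 5661 to 5810 FPKM in corticotropes and 14.7 to 63.8 FPKM in melanotropes; 1 of them was at 0 in a melanotrope library and none in corticotropes. They moved in the same direction as Wnt9a, Wnt10a, Wnt6, Rspo3, Rspo2 and Fzd7, and their part in those results was not tested. Posterior lobe and glia markers did not move as 1 group. Of 8, 3 (Rax, Col25a1 and Slc1a3) were higher, as Wnt5b and Rspo4 were. Vim was lower, at 19.4 and 20.2 against 9.63 and 12.0 FPKM. Of those not tested, Gfap and Nkx2-1 were higher and Aqp4 and Aldh1l1 lower in either melanotrope library than in any corticotrope library. None was at 0, summed levels were 24.2 to 26.6 against 34.3 to 40.1 FPKM, and their part was not tested either. Blood markers had summed levels of 21.9 to 29.2 against 8.33 to 12.3 FPKM, with 1 of 8 higher and 2 lower. The 2 lower were the globins Hbb-bs (13.4 and 18.6 against 1.16 and 2.58 FPKM) and Hba-a1 (4.65 and 5.34 against 0.386 and 0.830 FPKM). The globins made up most of the corticotrope sums. The marker that was higher was Csf1r, at 0.393 and 0.565 against 1.76 and 2.45 FPKM.

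**Figure D1:**
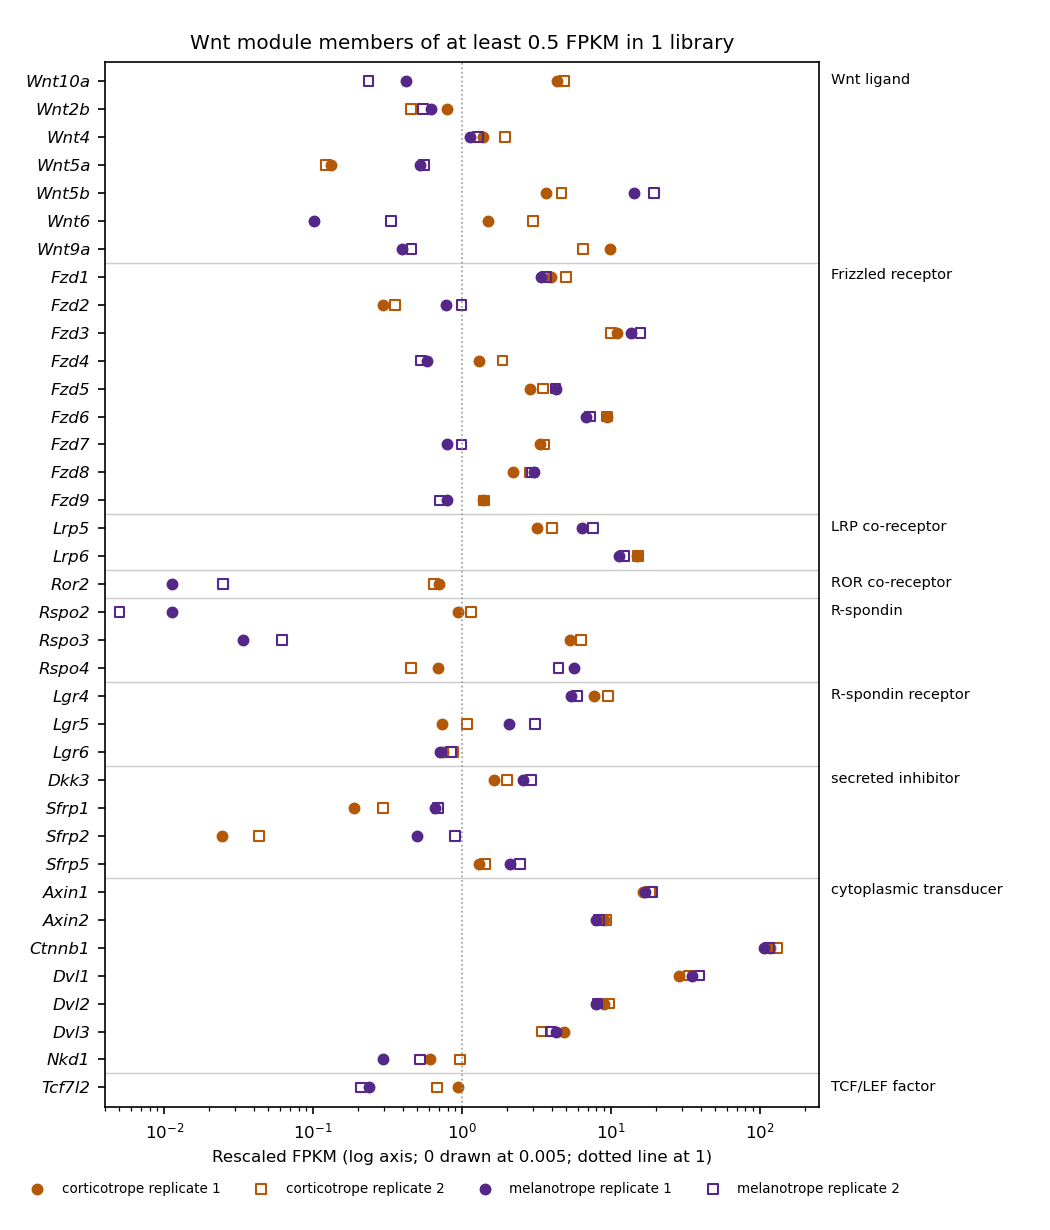
Rescaled FPKM (log axis, 0 drawn at 0.005) of the members that reached 0.5 FPKM in at least 1 library, by role; circles are replicate 1 and squares replicate 2, orange for corticotropes and purple for melanotropes. Wnt5b and Rspo4 stand to the right in melanotropes, while Wnt9a, Wnt10a, Wnt6 and Rspo3 stand to the right in corticotropes and Ctnnb1 lies above 100 in every library.

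The leading ligand differed between the cell types. Wnt5b was the leading ligand of melanotropes, and Wnt9a that of corticotropes. In corticotropes Wnt10a (4.31 and 4.87 FPKM) and Wnt5b (3.64 and 4.67 FPKM) followed at close levels. Of 19 ligands, 5 were tested, 1 was higher, 3 were lower and 1 did not pass the test. Among all tested genes 36.2% were called. The 3 lower ligands passed the filter in corticotropes alone, and 89.8% of all genes of that kind were called. Wnt7a, a ligand of the uterus and limb, was listed at 0 in all libraries, and 8 ligands stayed under 0.1 FPKM throughout.

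Wnt5b, a ligand usually assigned to the β-catenin-independent branch, lies on chromosome 6 at 119432531 to 119544347 (mm10, minus strand). Its level was 3.64 and 4.67 FPKM in corticotropes and 14.4 and 19.5 FPKM in melanotropes. Both melanotrope libraries were far above both corticotrope libraries, and the melanotrope mean was 4.08 times the corticotrope mean. The difference was 1.79 (SE 0.16, limma adjusted p = 0.00058). The gene Fbxl14 lies within the span of Wnt5b on the other strand at 10.7 and 10.9 against 11.7 and 13.2 FPKM, but shares 0 exon bases with it in the GENCODE annotation.

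Wnt9a, a ligand best known from joint and skeletal development, lies on chromosome 11 at 59306930 to 59333552. It was at 9.87 and 6.53 FPKM in corticotropes and at 0.397 and 0.459 FPKM in melanotropes, a mean 19.2 times as high in corticotropes. Every corticotrope value was above every melanotrope value by more than the gap between replicates, which was wide in corticotropes. The difference was -2.66 (SE 0.18, limma adjusted p = 0.000193).

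Wnt10a, a ligand of the β-catenin branch known for its part in teeth and skin appendages, and Wnt6 are neighbours on chromosome 1, with 6699 bases between them on the same strand. Wnt10a (74792019 to 74804175) was at 4.31 and 4.87 FPKM in corticotropes and 0.420 and 0.235 FPKM in melanotropes, a difference of -2.08 (SE 0.11, limma adjusted p = 0.000103). Wnt6 (74771892 to 74785319), a ligand of epithelia, was at 1.49 and 2.99 FPKM in corticotropes and 0.102 and 0.335 FPKM in melanotropes, a difference of -1.38 (SE 0.23, limma adjusted p = 0.00581). Both members of the pair were lower in melanotropes, Wnt10a with close replicates and Wnt6 with replicates that differed in both cell types. Like Wnt9a, both passed the filter in corticotropes alone, and 89.8% of all genes of that kind were called. Most alternatives kept that filter, so a call kept under them adds little for these genes. All 4 called ligands kept their call under each of the 14 alternatives run.

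Wnt4, known from the pituitary and the reproductive tract, was at 1.39 and 1.95 FPKM in corticotropes and 1.12 and 1.28 FPKM in melanotropes. The groups did not overlap, but the difference of -0.27 did not pass the test (limma adjusted p = 0.153). It was called lower without corticotrope replicate 1 (limma adjusted p = 0.0356) and on the deposited scale (0.00835), over a range of 0.00835 to 0.507. Wnt5a, the close relative of Wnt5b, was too low to be tested, at 0.131 and 0.122 FPKM in corticotropes and 0.522 and 0.558 FPKM in melanotropes, 4.27 times as high in the melanotrope mean. Fitted without the filter it was called higher (limma adjusted p = 0.0031). Wnt16 was at 0.074 and 0.156 FPKM in corticotropes and 0.034 and 0.037 FPKM in melanotropes, from 17 and 69 against 11 and 12 implied reads. Wnt11 had at most 7 implied reads in any library, too few to order the cell types.

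Summed over all 19 ligands, the libraries of the cell types overlapped after rescaling. The rescaled sums were 22.4 and 22.3 FPKM in corticotropes and 18.3 and 23.6 FPKM in melanotropes. On the deposited scale there was no overlap, at 27.31 and 25.71 FPKM in corticotropes and 16.14 and 19.08 FPKM in melanotropes. The median difference over all genes on that scale was -0.42. The make-up of that sum was unlike. Wnt5b made up 16.3% and 20.9% of it in corticotropes and 78.7% and 82.6% in melanotropes. Wnt9a took 44.2% and 29.2% in corticotropes against 2.17% and 1.94% in melanotropes, and Wnt10a 19.3% and 21.8% against 2.29% and 0.996%. Within each library the ratio of Wnt5b to Wnt9a was 0.369 and 0.715 in corticotropes and 36.3 and 42.6 in melanotropes.

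**Figure D2:**
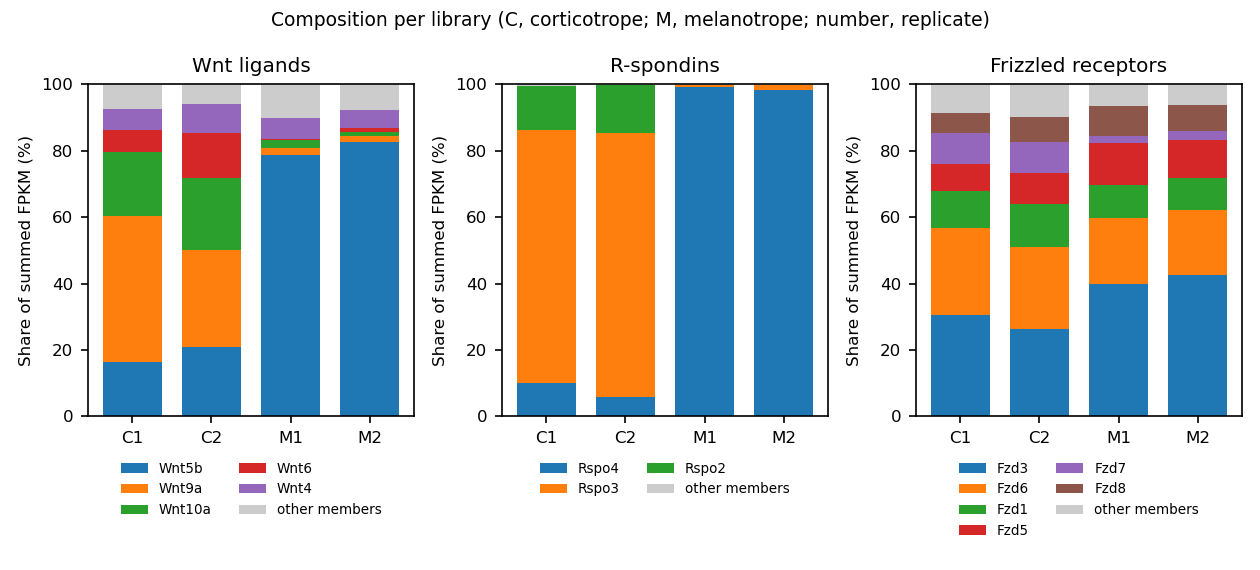
Share of the summed FPKM of 3 roles (percent, stacked to 100) in each of the 4 libraries, C for corticotrope and M for melanotrope replicates 1 and 2. Wnt5b fills 78.7% and 82.6% of the ligand bars and Rspo4 99.2% and 98.4% of the R-spondin bars in melanotropes, while the Frizzled bars differ less.

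Among the Frizzled receptors, the membrane proteins that bind Wnt, 8 of 10 were tested. Of these, 1 was higher, 4 were lower and 3 did not pass the test, where 36.2% of all tested genes were called. Of the lower ones, 3 passed the filter in corticotropes alone, and 89.8% of all genes of that kind were called. Fzd3 and Fzd6, which are known for planar polarity and axon guidance, were the most abundant in every library. Fzd3 was at 10.95 and 9.98 FPKM in corticotropes and 13.6 and 15.8 FPKM in melanotropes, a difference of 0.45 (SE 0.10, limma adjusted p = 0.017). Fzd6 was at 9.39 and 9.38 FPKM in corticotropes and 6.77 and 7.26 FPKM in melanotropes, a difference of -0.37 (SE 0.08, limma adjusted p = 0.0152). The replicates of each cell type lay apart from those of the other for both genes, but neither call held throughout. Fzd3 lost its call without corticotrope replicate 2 (limma adjusted p = 0.0544) and without melanotrope replicate 2 (0.0761), and on the deposited scale it had no positive difference (-0.0013, limma adjusted p = 0.991; 0.00333 to 0.991 over the alternatives). Fzd6 lost it without melanotrope replicate 1 (limma adjusted p = 0.0868; 0.000816 to 0.0868 over the alternatives). The ratio of Fzd6 to Fzd3 within a library was 0.857 and 0.940 in corticotropes and 0.498 and 0.459 in melanotropes.

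Fzd7 was the Frizzled with the widest difference. This receptor, known from stem cells of several epithelia, was at 3.32 and 3.55 FPKM in corticotropes and 0.794 and 0.992 FPKM in melanotropes, 3.85 times as high in the corticotrope mean. The difference was -1.23 (SE 0.10, limma adjusted p = 0.000395). Fzd4, a receptor of vessels and of the non-Wnt ligand Norrin, was at 1.29 and 1.87 FPKM in corticotropes and 0.579 and 0.533 FPKM in melanotropes (-0.72, SE 0.13, limma adjusted p = 0.00815). Fzd9 was at 1.39 and 1.40 FPKM against 0.794 and 0.706 FPKM (-0.45, SE 0.10, limma adjusted p = 0.0136), a call lost without melanotrope replicate 2 (limma adjusted p = 0.0705; 0.0021 to 0.0705 over the alternatives). Fzd4, Fzd7 and Fzd9 passed the filter through corticotropes alone. The endothelial marker list moved the same way as Fzd4: its summed level was 13.8 to 21.3 FPKM in corticotropes and 4.51 to 6.57 FPKM in melanotropes, 3 of 8 markers were called lower and none higher, and none was at 0; the part of these cells in the result was not tested.

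The remaining tested Frizzleds, Fzd1, Fzd5 and Fzd8, did not pass the test. Fzd5, the nearest to it, was at 2.87 and 3.51 FPKM in corticotropes and 4.27 and 4.25 FPKM in melanotropes (0.33, limma adjusted p = 0.0526). It was called higher in 4 of the 14 alternatives, among them equal sums of transcripts other than Pomc (limma adjusted p = 0.0335; 0.0132 to 0.656 over the alternatives). Fzd1 was called lower in 3, among them the deposited scale (-0.66, limma adjusted p = 0.00317; 0.00317 to 0.444 over the alternatives). Fzd2 was not tested but was ordered without overlap, at 0.295 and 0.356 against 0.783 and 0.992 FPKM. The rescaled sum over all Frizzleds overlapped, at 35.8 and 38.0 FPKM in corticotropes and 34.1 and 37.2 FPKM in melanotropes. On the deposited scale it did not, at 43.69 and 43.7 FPKM in corticotropes and 30.05 and 30.04 FPKM in melanotropes. Of these sums Fzd7 took 9.29% and 9.34% in corticotropes and 2.33% and 2.66% in melanotropes.

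LRP5 and LRP6 are the single-pass co-receptors of the β-catenin branch, and they differed in opposite directions. Lrp5 was at 3.21 and 4.03 FPKM in corticotropes and 6.36 and 7.62 FPKM in melanotropes, a difference of 0.79 (SE 0.13, limma adjusted p = 0.0050). Lrp6 was at 15.1 and 15.2 FPKM in corticotropes and 11.4 and 12.2 FPKM in melanotropes, a difference of -0.33 (SE 0.08, limma adjusted p = 0.0205). Lrp6 remained the more abundant in each library, by 4.69 and 3.76 times in corticotropes and by 1.79 and 1.60 times in melanotropes. The call for Lrp5 held under all 14 alternatives. That for Lrp6 was lost without corticotrope replicate 1 (limma adjusted p = 0.0667), without corticotrope replicate 2 (0.0709) and without melanotrope replicate 1 (0.105), over a range of 0.000682 to 0.105. The summed level of both, after rescaling, was 18.3 and 19.2 FPKM against 17.8 and 19.8 FPKM. On the deposited scale the cell types did not overlap, at 22.31 and 22.08 FPKM against 15.65 and 15.98 FPKM.

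The ROR receptors, tyrosine kinases that serve Wnt5a and its relatives, were under 1 FPKM and were not tested. Ror2 was at 0.696 and 0.652 FPKM in corticotropes (387 and 684 implied reads) and 0.011 and 0.025 FPKM in melanotropes (9 and 19 reads). It was close to undetected in melanotropes. Fitted without the filter, the difference was -0.72 (limma adjusted p = 0.00176). Ror1 was at 0.295 and 0.304 against 0.204 and 0.198 FPKM.

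The cell types differed in their leading R-spondin, Rspo3 in corticotropes and Rspo4 in melanotropes. Rspo3, on chromosome 10 at 29453107 to 29535867, was at 5.31 and 6.28 FPKM in corticotropes, from 1785 and 3978 implied reads. In melanotropes it was at 0.034 and 0.062 FPKM, from 16 and 28 reads, a mean 121 times as high in corticotropes. Rspo3 passed the filter in corticotropes alone, and 89.8% of all genes of that kind were called. Rspo3 was the member with the lowest adjusted p, with a difference of -2.69 (SE 0.11, limma adjusted p = 4.58e-05). Since the melanotrope level is near 0, that difference depends on the number added before taking logarithms, -5.32 with 0.1 and -1.10 with 5, and kept its call with both.

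Rspo4, known for its part in nail development, lies on chromosome 2 at 151842927 to 151874668. It was at 0.688 and 0.452 FPKM in corticotropes and 5.65 and 4.45 FPKM in melanotropes, a mean 8.86 times as high in melanotropes. The difference was 1.94 (SE 0.14, limma adjusted p = 0.000236), with no overlap between the cell types. Rspo4 passed the filter in melanotropes alone, and 92.5% of all genes of that kind were called. Rspo2 followed Rspo3 at a lower level, 0.933 and 1.15 FPKM in corticotropes against 0.011 and 0 FPKM in melanotropes (437 and 1013 against 7 and 0 implied reads). It was not tested, and without the filter it was called lower (limma adjusted p = 0.00264). Rspo1 had at most 8 implied reads in a library. Of the summed R-spondin level, 6.97 and 7.88 FPKM in corticotropes and 5.69 and 4.52 FPKM in melanotropes, Rspo3 made up 76.3% and 79.7% in corticotropes and 0.598% and 1.37% in melanotropes, and Rspo4 9.87% and 5.73% against 99.2% and 98.4%.

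The R-spondin receptors had smaller differences than Rspo3 and Rspo4. Lgr4, the receptor with the widest distribution over tissues, was at 7.71 and 9.59 FPKM in corticotropes and 5.42 and 5.91 FPKM in melanotropes (-0.53, SE 0.12, limma adjusted p = 0.0163). The call was lost without melanotrope replicate 1 (limma adjusted p = 0.0582; 0.000762 to 0.0582 over the alternatives). Lgr5, known as a marker of several adult stem cells and as a target of the pathway, was at 0.737 and 1.09 FPKM in corticotropes and 2.06 and 3.11 FPKM in melanotropes (0.90, SE 0.17, limma adjusted p = 0.00907). Lgr5 was 2.84 times as high in the melanotrope mean and Lgr4 1.53 times as high in the corticotrope mean. Lgr4 was the more abundant in each library, by 10.5 and 8.83 times in corticotropes and 2.63 and 1.90 times in melanotropes. Lgr6 overlapped, at 0.745 and 0.869 against 0.715 and 0.843 FPKM. The gene A930009A15Rik overlaps the span of Lgr5 on the other strand, at 0.246 and 0.200 against 0.998 and 0.694 FPKM, and shares 0 exon bases with it.

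**Figure D3:**
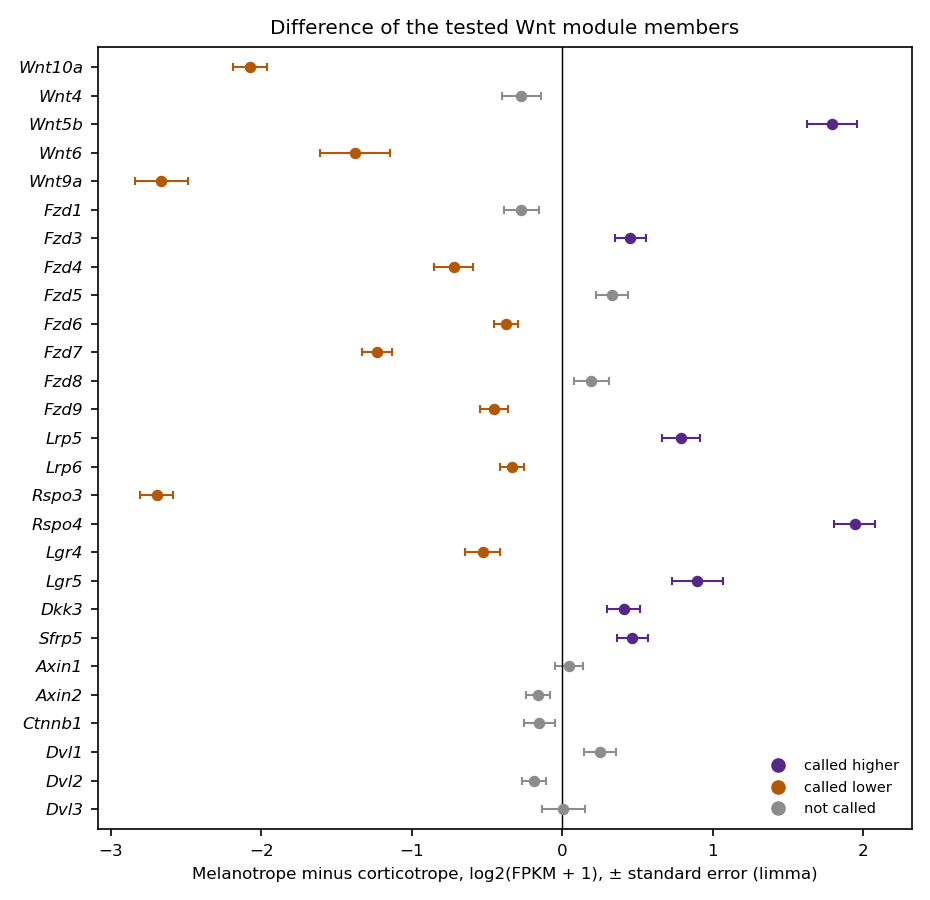
Difference between the cell types (melanotrope minus corticotrope, log2(FPKM + 1)) of the 27 tested members, by role, with bars for 1 standard error from limma; purple members were called higher, orange lower, gray not called. Wnt5b at 1.79 and Rspo4 at 1.94 lie opposite to Wnt9a at -2.66 and Rspo3 at -2.69, and the cytoplasmic transducers from Axin1 to Dvl3 lie between -0.19 and 0.25.

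The secreted inhibitors bind Wnt (Sfrp, Wif1) or LRP5 and LRP6 (Dkk1, Dkk2 and Dkk4). Of 9, 2 were tested, and both were higher in melanotropes, where 18.7% of all tested genes were higher. Sfrp5 was at 1.30 and 1.43 FPKM in corticotropes and 2.10 and 2.45 FPKM in melanotropes (0.47, SE 0.10, limma adjusted p = 0.0159). Dkk3, a divergent family member whose role in Wnt signalling is unsettled, was at 1.63 and 2.01 FPKM in corticotropes and 2.58 and 2.90 FPKM in melanotropes (0.41, SE 0.11, limma adjusted p = 0.0316). The groups did not overlap for either gene, but the calls were not firm. Sfrp5 missed the threshold on the deposited scale (0.15, limma adjusted p = 0.186) and without melanotrope replicate 2 (0.0899), over a range of 0.00249 to 0.186. Dkk3 missed it on the deposited scale (0.07, limma adjusted p = 0.546), without the filter (0.0786), and without corticotrope replicate 1 (0.102), melanotrope replicate 1 (0.0608) or melanotrope replicate 2 (0.145), over a range of 0.00406 to 0.546.

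Sfrp1 was not tested, at 0.188 and 0.295 FPKM in corticotropes and 0.658 and 0.694 FPKM in melanotropes, and was called higher without the filter (limma adjusted p = 0.0114). Sfrp2 was at 0.025 and 0.043 against 0.499 and 0.892 FPKM, from 7 and 23 against 192 and 336 implied reads. Sfrp4 was at 0.237 and 0.304 against 0.374 and 0.421 FPKM. On the deposited scale the cell types overlapped for Sfrp4, at 0.29 and 0.35 against 0.33 and 0.34 FPKM. The summed level of the secreted inhibitors was 3.59 and 4.23 FPKM in corticotropes and 6.40 and 7.50 FPKM in melanotropes. Of a list of 8 mesenchyme markers, 3 were called higher and 1 lower, its summed level was 9.47 to 11.4 FPKM in corticotropes and 17.9 to 20.4 FPKM in melanotropes, and none was at 0; the part of such cells in the Sfrp levels was not tested. Dkk1, Dkk2, Dkk4 and Wif1 were at most 0.139 FPKM in any library. Apcdd1, a membrane inhibitor, was at 0.074 and 0.130 FPKM in corticotropes and 0.057 and 0.050 FPKM in melanotropes, too low to be tested.

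No cytoplasmic transducer was called. Of 8, 6 were tested with limma, 0 were called higher and 0 lower, where 36.2% of all tested genes were called, and 0 had an unadjusted p under 0.05. On the deposited scale 5 of the 6 were called lower, and with equal sums of transcripts other than Pomc 1 (Dvl1) was called higher. Without the filter Nkd2 was called lower. With a replicate block, which pairs same-numbered libraries, Ctnnb1 and Dvl1 passed the threshold. Ctnnb1, which encodes β-catenin, had the highest level of all members, 116.5 and 130.3 FPKM in corticotropes and 106.7 and 115.2 FPKM in melanotropes. The difference was -0.15 (SE 0.10, limma adjusted p = 0.297). Axin2, a scaffold of the destruction complex that is itself a widely used target of the β-catenin branch, was at 9.04 and 9.29 FPKM in corticotropes and 7.88 and 8.32 FPKM in melanotropes. Its difference was -0.16 (SE 0.08, limma adjusted p = 0.17). The replicates did not overlap for either gene, and with this spread a difference of that size did not pass the test.

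On the deposited scale Ctnnb1 was called lower (-0.64, limma adjusted p = 0.00103; 0.00103 to 0.763 over the alternatives), as was Axin2 (-0.60, limma adjusted p = 0.00186; 0.00186 to 0.491 over the alternatives), where the median difference over all genes was -0.42. The ratio of Ctnnb1 to Axin2 within a library, which needs no scaling, was 12.9 and 14.0 in corticotropes and 13.5 and 13.8 in melanotropes. Axin1, the constitutive scaffold, was at 16.6 and 18.3 FPKM against 17.0 and 19.0 FPKM, with overlap. Dvl1, Dvl2 and Dvl3, which relay the signal from Frizzled, had differences of 0.25, -0.19 and 0.01, none of which passed the test. Dvl1 was called in 3 of the 14 alternatives, among them lower on the deposited scale (-0.22, limma adjusted p = 0.044) and higher with equal sums of transcripts other than Pomc (0.31, limma adjusted p = 0.0285; 0.00747 to 0.469 over the alternatives), so that its direction turned with the scaling. Dvl1 shares 36 exon bases with Tas1r3 on the other strand, which was at 2.38 and 1.82 against 2.21 and 1.88 FPKM. Nkd1 and Nkd2, which restrain Dishevelled, were under 1 FPKM, Nkd2 at 0.352 and 0.374 against 0.102 and 0.050 FPKM.

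The TCF/LEF factors, the DNA-binding partners of β-catenin, were all under 1 FPKM and none was tested. Tcf7l2 was at 0.941 and 0.678 FPKM in corticotropes and 0.238 and 0.211 FPKM in melanotropes, and Tcf7l1 at 0.483 and 0.391 against 0.136 and 0.161 FPKM. For both genes the corticotrope libraries were above the melanotrope libraries, and without the filter both were called lower (Tcf7l2 -0.56, limma adjusted p = 0.0152; Tcf7l1 -0.32, limma adjusted p = 0.0119). The size of these differences moved with the settings while the direction held: Tcf7l2 was at -1.39 when summed over transcripts, -1.47 with a pseudocount of 0.1 and -0.15 with one of 5, and Tcf7l1 at -0.53, -1.11 and -0.079. Tcf7 overlapped at 0.213 and 0.226 against 0.204 and 0.223 FPKM, as did Lef1 at 0.041 and 0.052 against 0.045 and 0.050 FPKM. The 8 transcripts of Tcf7l2 had the widest spread of differences within a gene, 0.10 on the log2 scale. In none of the 12 members with several transcripts did the transcripts differ in direction. Transcripts of a gene had close levels, with the same values in both longer transcripts of Lef1, so that this agreement does not tell isoforms apart.

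**Figure D4:**
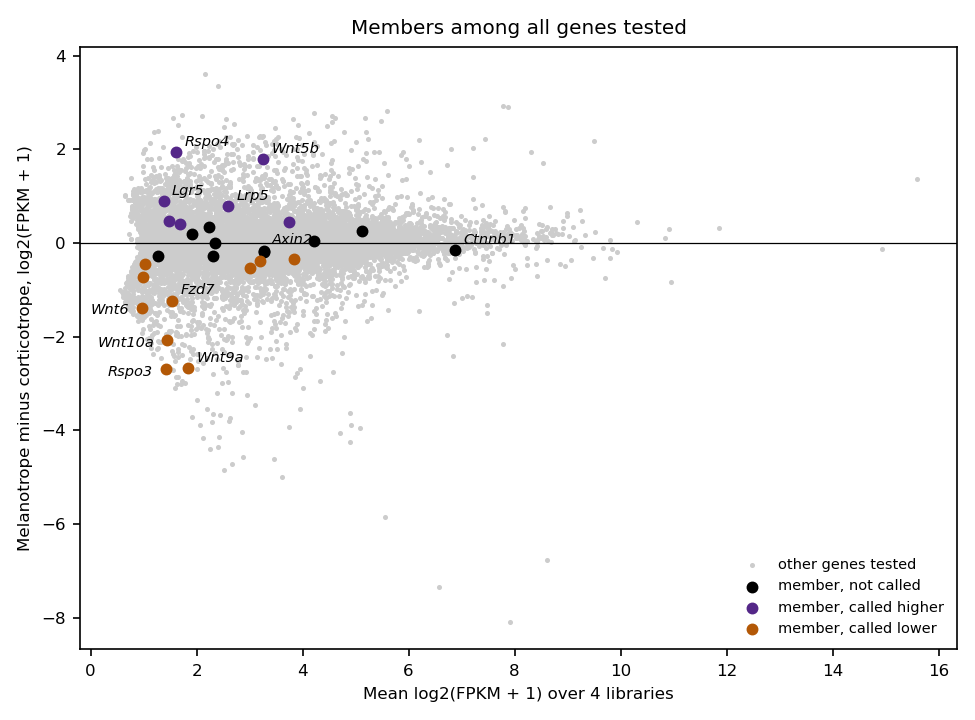
Difference between the cell types against mean level, both in log2(FPKM + 1), for the 13043 tested genes in gray and the 27 tested members in color (purple called higher, orange called lower, black not called). Wnt9a and Rspo3 lie low at small mean levels, Wnt5b and Rspo4 high, and Ctnnb1 lies near 0 at the right.

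Beyond the members, 5 lists of other pathway genes, 88 genes in all, were examined; 71 were tested, 12 were higher and 22 lower, where 18.7% of all tested genes were higher and 17.5% lower. Of the genes called, Tbx3, Sox9 and Dact1 passed the filter on low values in melanotropes alone and Musk, Vangl1 and Adgra2 in corticotropes alone. Of all genes of these kinds 92.5% and 89.8% were called, so that these 6 calls are descriptions only. On the deposited scale 8 were higher and 50 lower, where over all genes 939 were higher and 8787 lower, and without melanotrope replicate 1 the number lower was 12. Without the filter, the median differences were -0.10 for secretion and destruction machinery, -0.08 for extracellular modulators, -0.03 for nuclear partners, -0.03 for planar polarity and 0.08 for known targets, beside -0.01 over all genes.

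For secretion and the destruction machinery, 19 of 20 genes were tested, 1 was higher and 4 were lower. Over all tested genes 18.7% were higher and 17.5% lower. Wls, which carries Wnt proteins to the cell surface, was at 34.1 and 34.8 FPKM in corticotropes and 13.8 and 16.9 FPKM in melanotropes (-1.13, SE 0.11, limma adjusted p = 0.000693). Rnf43, a ubiquitin ligase that removes Frizzled and is itself a target, was at 5.59 and 5.20 FPKM in corticotropes and 9.03 and 10.9 FPKM in melanotropes (0.77, SE 0.11, limma adjusted p = 0.00288). Both kept their call under all 14 alternatives. The other 3 that were lower, Csnk1g1 (-0.41), Btrc (-0.26) and Gsk3b (-0.26), lost it under several alternatives, among them equal sums of transcripts other than Pomc and each of 3 or 4 omitted libraries.

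Among extracellular modulators and co-receptors, 12 of 19 were tested, 1 was higher and 8 were lower. Over all tested genes 18.7% were higher and 17.5% lower. Of the lower ones, Musk and Adgra2 passed the filter in corticotropes alone, and 89.8% of all genes of that kind were called. Gpc3, a heparan sulphate proteoglycan of the cell surface, was at 1.15 and 1.76 FPKM in corticotropes and 12.3 and 12.6 FPKM in melanotropes (2.47, SE 0.13, limma adjusted p = 9.57e-05). Gpc4, of the same family, went the other way at 5.35 and 4.23 against 1.43 and 1.38 FPKM (-1.26). Kremen1, a receptor of Dkk proteins, was at 22.2 and 30.4 FPKM in corticotropes and 6.05 and 7.42 FPKM in melanotropes (-1.81, SE 0.16, limma adjusted p = 0.000555). Lrp4, which can bind sclerostin and restrain the pathway, was at 6.58 and 5.19 against 1.09 and 0.954 FPKM (-1.76), and Musk, a kinase that partners Lrp4 at the nerve-muscle junction, was at 1.35 and 1.31 against 0.125 and 0.099 FPKM (-1.07).

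Among nuclear partners, 15 of 16 were tested, 3 were higher and 4 lower, beside 18.7% and 17.5% of all tested genes. Tle3, a co-repressor that TCF/LEF factors recruit in the absence of β-catenin, was at 5.43 and 6.12 FPKM in corticotropes and 29.5 and 33.2 FPKM in melanotropes (2.25, SE 0.10, limma adjusted p = 5.63e-05). Its relatives Tle1 (-0.48) and Tle2 (-0.62) were lower, Tle1 with a call lost without melanotrope replicate 2 (limma adjusted p = 0.0584; 0.00128 to 0.0584 over the alternatives). Dact1 (1.11) and Dact3 (0.85), which bind Dishevelled, were higher. Ctnnbip1 (-0.61), an inhibitor of β-catenin, and Cxxc4 (-0.71), an inhibitor of Dishevelled, were lower, Cxxc4 not without the filter (limma adjusted p = 0.056; 0.00033 to 0.056 over the alternatives).

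Among planar polarity genes, which orient cells within an epithelium, 15 of 17 were tested, 3 were higher and 4 lower. The shares over all tested genes were 18.7% and 17.5%. Prickle2 was at 4.32 and 4.14 FPKM in corticotropes and 8.44 and 7.96 FPKM in melanotropes (0.81, SE 0.08, limma adjusted p = 0.00087). Celsr2 was higher by 0.63, but not called on the deposited scale (0.27, limma adjusted p = 0.0701; 0.000854 to 0.0701 over the alternatives), and Vangl2 was higher by 0.34, lost without any 1 library and turned to -0.03 on the deposited scale. Scrib (-0.45), Vangl1 (-0.52), Ankrd6 (-0.33) and Fuz (-0.30) were lower; Vangl1 lost its call without melanotrope replicate 1, Ankrd6 and Fuz under 5 alternatives each.

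Among known transcriptional targets outside the module, 12 of 19 were tested, 5 were higher and 2 lower. The shares over all tested genes were 18.7% and 17.5%. Tbx3, a T-box transcription factor, was at 0.409 and 0.400 FPKM in corticotropes and 2.13 and 1.96 FPKM in melanotropes (1.12, SE 0.10, limma adjusted p = 0.000463). Sox9 (0.52), Zfp703 (0.49) and Rnf43 were also higher, with Fgf9 as the fifth (0.40, limma adjusted p = 0.0244; 0.00602 to 0.851 over the alternatives). Jun, a subunit of the AP-1 transcription factor, was at 149.8 and 176.9 FPKM in corticotropes and 102.0 and 120.8 FPKM in melanotropes (-0.55, SE 0.13, limma adjusted p = 0.0216). Zfp703 lost its call on the deposited scale (limma adjusted p = 0.0977; 0.00238 to 0.0977 over the alternatives). Jun lost it without the filter (limma adjusted p = 0.0545), without corticotrope replicate 2 (0.0971) and without melanotrope replicate 1 (0.0905), over a range of 7.33e-05 to 0.0971. Many of these genes also answer to other pathways. Sox9 is also 1 of 11 stem and folliculostellate markers, of which 4 were higher and 3 lower. Their summed level was 100.1 to 119.8 FPKM in corticotropes and 240.7 to 245.4 FPKM in melanotropes. Most of the melanotrope sum came from the keratins Krt8 and Krt18. Krt8 was at 19.9 and 22.3 against 82.5 and 84.9 FPKM, and Krt18 at 28.1 and 30.5 against 117.2 and 112.1 FPKM. Aldh1a1, Aldh1a2 and Cyp2f2 were lower, Aldh1a2 at 12.3 and 16.6 against 1.07 and 1.49 FPKM. The part of such cells in the result was not tested.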

How the data were processed

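The 4 RNA-seq libraries were ribosome-depleted and read as 50 bp pairs, per the labels. The authors used HOMER to count exons of RefSeq transcripts on mm10 and deposited FPKM, per the file headers. TopHat, HOMER and edgeR are named in the submitters' processing notes; versions, strand setting and the counting of read pairs are not given in those sources. The authors' log2 fold changes, p-values and FDR came from a HOMER comparison run on the FPKM table, per the file headers. The deposited ratio column was not used.

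Read numbers were implied from the spacing of low FPKM values, of which 95.4% to 100% lay within 0.1 step of whole reads. Over the longest transcripts they came to 97652520 and 187191552 in corticotropes and 146061472 and 149518172 in melanotropes. FPKM were deposited to 2 decimals.

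The longest transcript stood for each gene. Columns were divided by unweighted trimmed-mean (TMM) factors, trimming 30% of M and 5% of A. Genes that reached 1 rescaled FPKM in 2 or more libraries entered a limma 3.58.1 model (R 4.3.3), with a trend, on log2(FPKM + 1), two-sided, with Benjamini-Hochberg adjustment and a threshold of 0.05. Residual degrees of freedom were 2, those of the prior 4.02, and the median SE was 0.096. The model was tested on simulated data of 13043 genes. Of 100 genes changed by 1 and 100 changed by 2, 99% and 100% were recovered, with 26 false calls. Alternatives were the deposited scale, equal sums without Pomc, other pseudocounts, filters, transcript choices and prior variance, a replicate block and leaving out each library.

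The members and lists were chosen with earlier results of these data known. The rule named each called member and 17 fixed ones, and up to 4 other pathway genes per direction and list; members named beyond it were chosen after their values were seen. Adgra2 was matched through its older symbol. Promoter windows are from RefSeq (GRCm38.p6), other coordinates from the deposited table, and exon overlaps from GENCODE M21. One list member that the rule named and 1 motif are not reported here.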

Additional observations from a re-analysis of the deposited data

How the results depend on the processing

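With 2 libraries per cell type the fit rests on few degrees of freedom, and members under 1 FPKM can be ordered but seldom tested. Of the 17 called members and Ctnnb1, Axin2 and Wnt4, none changed its call or direction with equal sums of transcripts other than Pomc, with another pseudocount, transcript choice or prior variance, or with a filter on the mean. Members called higher came to 9 both with equal sums, where Fzd5 (limma adjusted p = 0.0335) and Dvl1 (0.0285) were gained, and summed over transcripts. On the deposited scale 939 genes were higher and 8787 lower, members 4 and 18, and 50 other pathway genes were lower; Fzd3 turned to -0.0013 and Vangl2 to -0.030. That scale leaves in the shift of -0.42 in the median gene. Without the filter 17 members were lower. Leaving out 1 library gave 1673 to 2022 genes higher and 1584 to 2017 lower, 4 to 7 members higher (4 without melanotrope replicate 2) and 7 to 11 lower (7 without melanotrope replicate 1), and 10 to 12 other pathway genes higher and 12 to 16 lower. With a replicate block 3656 genes were higher and 3350 lower, members 9 and 13, and other pathway genes 15 and 32. The replicates share only a number in the labels, and deviations of same-numbered libraries had a correlation of 0.53 over genes. Under the block Ctnnb1 (limma adjusted p = 0.0416), Wnt4 (0.0409), Fzd5 (0.0132), Dvl1 (0.00747) and Fzd1 passed the threshold. The cause of these changes was not tested.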

Other observations

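In the authors' deposited table, 5 transcripts of 3 members were under an FDR of 0.05, out of 754 transcripts in all. These were 3 transcripts of Wnt5b, with log2 fold changes of 1.91, 1.95 and 2.07 in the authors' deposited table, Wnt9a at -5.99 (FDR 0.0024) and Rspo3 at -5.58 (FDR 0.0244). In the authors' deposited table, 99.3% of the 10791 transcripts under 0.5 FPKM in all libraries have a fold change of exactly 0. The low end of the Wnt group falls within that range, with 32 of its 85 transcripts under 0.5 FPKM throughout.

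Besides Wnt6 and Wnt10a, 3 pairs of ligands lie side by side in the genome on opposite strands. Wnt3a and Wnt9a are 16178 bases apart on chromosome 11, and Wnt3a had at most 3 implied reads in a library while Wnt9a had 4599 and 5728 in corticotropes. Wnt9b and Wnt3 are 24353 bases apart on the same chromosome, both under 0.3 FPKM, with Wnt3 at 0.090 and 0.122 against 0.272 and 0.198 FPKM. Wnt10b and Wnt1 are 11706 bases apart on chromosome 15, with Wnt10b at 0.409 and 0.243 against 0.295 and 0.322 FPKM and Wnt1 at most 16 reads.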
